A study of Mus musculus with 7 samples.

Results

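Skeletal muscle fibers receive their command at the neuromuscular junction, where acetylcholine released by the motor nerve opens nicotinic acetylcholine receptors packed in the muscle membrane. Described here are 10 genes of that postsynaptic apparatus: the receptor subunits Chrna1, Chrnb1, Chrnd, Chrne and Chrng, and the genes that gather the receptor under the nerve, Agrn, Lrp4, Musk, Dok7 and Rapsn. They were chosen by name, as every non-control array probe whose gene name or current symbol is one of these 10. This gave 12 probes of 39429, of which 10 probes, for 9 of the 10 genes, were bright enough to be tested.

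Quadriceps muscle RNA of C57BL/6 mice aged 3 months was hybridized to 7 one-colour Agilent arrays, of which 4 held WT samples and 3 held AR113Q samples. AR113Q is a knock-in mouse model of spinobulbar muscular atrophy (SBMA), a neuromuscular disease caused by an expanded CAG repeat; the humanized knock-in allele carries the expanded repeat at the endogenous locus and is not limited to muscle. The labels and figure legends of the study name the controls WT, while its results text describes a knock-in control with a short repeat, so that WT here is the labelled group. No label gives a treatment or the sex of a mouse, and nothing ties the samples to litters, so that p-values measure the spread between these arrays.

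Between 18773 and 22030 probes per array were well above background and none was saturated. Arrays correlated at 0.983 to 0.987 within WT, 0.969 to 0.981 within AR113Q and 0.908 to 0.943 between genotypes. The 7 arrays lay on 5 slides, and WT replicate 2 and AR113Q replicate 1 shared slide 2, the single slide with both genotypes; the difference within slide 2 is given beside each receptor and junction probe tested. All 10 skeletal muscle fiber markers, Acta1 among them, were above background on all 7 arrays and none was called. Their summed signal, on the linear scale, was 949500 to 1091000 in WT and 725100, 769400 and 1021000 in AR113Q replicates 1 to 3, so that 2 of the 3 AR113Q arrays lay below every WT array. Ckm, muscle creatine kinase, did not reach the fold set for a call but differed by -0.80 (log2, adjusted p = 0.0101) with no overlap between genotypes, and was chosen after its values were seen. The part of this fiber signal in the results that follow was not tested.

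As background, the receptor of adult muscle is built from alpha, beta, delta and epsilon subunits, encoded by Chrna1, Chrnb1, Chrnd and Chrne. In fetal muscle the gamma subunit, encoded by Chrng, stands in place of epsilon, and loss of nerve activity is known to raise receptor genes outside the synapse and to bring Chrng back. At the synapse, agrin from the nerve binds LRP4 on the muscle, LRP4 activates the kinase MuSK with the help of the adaptor DOK7, and rapsyn then anchors the receptor clusters.

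A probe was called upregulated or downregulated at a limma adjusted p of at most 0.05 over all 21002 probes tested where its log2 fold change was also 1 or more in either direction. Of the 10 probes tested, 3 were upregulated, both probes of Chrna1 and the probe of Musk, against 12.2% of all probes tested. Another 2 were downregulated, Chrne and Dok7, against 12.6% of all probes. The 7 arrays did not overlap between genotypes at 6 of the 10 probes, against 49.6% of all probes. Counted by gene, each at its brightest probe, 2 of 9 were upregulated and 2 were downregulated, against 11.2% and 13.1% of all 16586 genes. The median log2 fold change of the 9 genes was -0.30, beside -0.01 over all genes. With so few genes these shares describe the set and say nothing particular about it.

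**Figure D1:**
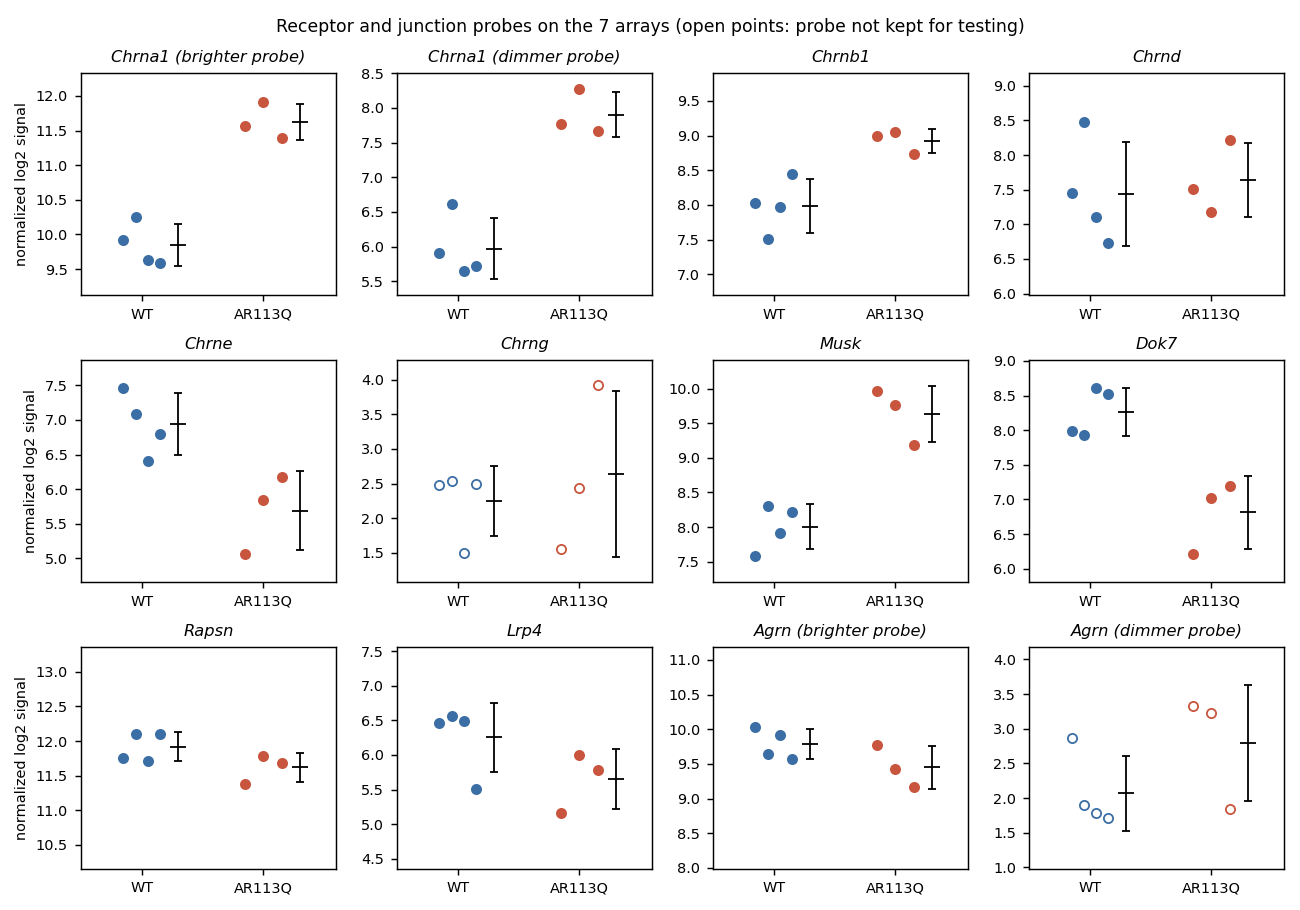
Normalized log2 signal (y axis, each panel with its own range of at least 3.2 units) of the 12 probes on the 4 WT arrays (blue) and the 3 AR113Q arrays (red); the black bar is the group mean with its SD, and open points mark the 2 probes too dim to be tested. Chrna1, Chrnb1 and Musk lay higher on every AR113Q array than on any WT array, and Chrne and Dok7 lay lower.

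Among the receptor subunits, Chrna1 was upregulated 3.41-fold, Chrne was downregulated 2.37-fold, Chrnb1 was higher by less than the fold change threshold, and Chrnd did not differ beyond its spread. Chrng exceeded background on a single AR113Q array, 1 of the 7, and was not tested. The subunits therefore did not move in 1 direction.

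Chrna1 encodes the alpha subunit, which contributes to the acetylcholine binding site. Its brighter probe (mm9 chr2:73404112-73404171) read 9.92, 10.25, 9.63 and 9.60 in WT replicates 1 to 4 and 11.56, 11.91 and 11.40 in AR113Q replicates 1 to 3. Its dimmer probe (mm9 chr2:73401389-73401448) read 5.90, 6.62, 5.65 and 5.71 in WT and 7.76, 8.27 and 7.67 in AR113Q. At both probes every AR113Q array lay above every WT array, and WT replicate 2 was the highest of its group. The log2 fold change was 1.77 ± 0.22 (SE, adjusted p = 0.000597) at the brighter probe and 1.93 ± 0.27 (adjusted p = 0.00107) at the dimmer, so that the probes gave like sizes of change. Within slide 2 the differences were 1.31 and 1.15. In the authors' normalized values the change was 1.61 at the brighter probe, still called, and 0.86 at the dimmer, which fell below the fold change threshold at an adjusted p of 0.00133.

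Chrnb1 encodes the beta subunit, whose phosphorylation strengthens the link of the receptor to the cytoskeleton. Its probe, for which the array annotation gives no position, read 8.03, 7.50, 7.97 and 8.45 in WT and 8.99, 9.05 and 8.73 in AR113Q. The genotypes did not overlap. The difference was 0.94 ± 0.23 (log2, SE; adjusted p = 0.0122), a 1.91-fold increase just short of the threshold of 1; it was past that threshold without WT replicate 4 (1.09) and without AR113Q replicate 3 (1.03). Within slide 2 it was 1.49. It was smaller without WT replicate 2 (0.77), with normexp background correction (0.67) and in the authors' normalized values (0.61).

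Chrnd encodes the delta subunit. Its probe (mm9 chr1:89096585-89096644) read 7.46, 8.47, 7.11 and 6.72 in WT and 7.51, 7.17 and 8.22 in AR113Q, so that the genotypes overlapped and WT replicate 2 was the highest of all. The difference was 0.20, with a 95% confidence interval of -0.77 to 1.16 (adjusted p = 0.732). That interval includes a change past the threshold upward as well as no change. The sign turned without AR113Q replicate 3 (-0.10), without WT replicate 4 (-0.04) and within slide 2 (-0.96).

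Chrne encodes the epsilon subunit of the adult receptor. Its probe (mm9 chr11:70429215-70429274) read 7.46, 7.09, 6.41 and 6.79 in WT and 5.06, 5.84 and 6.17 in AR113Q. Every AR113Q array lay below every WT array, by the smallest margin for AR113Q replicate 3. Chrne decreased by 1.25 ± 0.32 (log2, SE; adjusted p = 0.0155), and within slide 2 the difference was -2.02. The call depended on AR113Q replicate 1, the lowest array, without which the difference was -0.93 (adjusted p = 0.0484), and on the background subtraction. It was also lost with the replicate number as a block (-1.29, adjusted p = 0.0603). With normexp background correction the difference was -0.54 (adjusted p = 0.0398), and the authors' normalized values gave -0.34 (adjusted p = 0.0695).

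Chrng encodes the fetal gamma subunit. Its probe, also without a position, read 2.48, 2.53, 1.49 and 2.50 in WT and 1.56, 2.43 and 3.92 in AR113Q. It was well above background on 0 of 4 WT arrays and on 1 of 3 AR113Q arrays and was not tested. A change of Chrng was therefore not measurable on these arrays.

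Among the genes that gather the receptor, Musk was upregulated 3.08-fold and its adaptor Dok7 was downregulated 2.73-fold. Rapsn, Lrp4 and Agrn did not pass the test, and all 3 had a negative difference.

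Musk encodes the muscle-specific receptor tyrosine kinase that organizes the postsynaptic membrane. Its probe (mm9 chr4:58387070-58387129) read 7.58, 8.31, 7.92 and 8.22 in WT and 9.96, 9.76 and 9.18 in AR113Q. The genotypes did not overlap, and AR113Q replicate 3 was the lowest of its group. The log2 fold change was 1.62 ± 0.25 (SE, adjusted p = 0.00161), with 1.65 within slide 2 and 1.22 in the authors' normalized values.

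Dok7 encodes the cytoplasmic protein that activates MuSK from inside the fiber. Its probe (mm9 chr5:35430414-35430473) read 7.99, 7.93, 8.60 and 8.52 in WT and 6.21, 7.03 and 7.20 in AR113Q. All AR113Q arrays lay below all WT arrays, AR113Q replicate 1 the furthest. The log2 fold change was -1.45 ± 0.29 (SE, adjusted p = 0.00476), and within slide 2 it was -1.72. It shrank to -0.93 with normexp background correction (adjusted p = 0.00211) and to -0.73 in the authors' normalized values (adjusted p = 0.00466), where it passed the adjusted p but not the fold change threshold.

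Rapsn encodes rapsyn, the scaffold that clusters the receptor. Its probe (mm9 chr2:90885826-90885885) read 11.76, 12.10, 11.72 and 12.10 in WT and 11.39, 11.79 and 11.68 in AR113Q, with overlap between the genotypes. The difference was -0.30 (95% confidence interval -0.72 to 0.11, adjusted p = 0.209), an interval that does not reach the fold change threshold in either direction. Without AR113Q replicate 1 the difference was -0.18, and within slide 2 it was -0.71.

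Lrp4 encodes the muscle receptor for agrin. Its probe (mm9 chr2:91353566-91353625) read 6.47, 6.56, 6.48 and 5.52 in WT and 5.16, 6.00 and 5.78 in AR113Q. WT replicate 4 stood apart from the other WT arrays and lay among those of AR113Q. The difference was -0.61 (95% confidence interval -1.32 to 0.10, adjusted p = 0.145). Without WT replicate 4 it was -0.86 (adjusted p = 0.0299), which is past the adjusted p but not the fold change threshold, and without AR113Q replicate 1 it was -0.37 (adjusted p = 0.406). With normexp background correction it was -0.24, in the authors' normalized values -0.15 and within slide 2 -1.40.

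Agrn encodes agrin, which the motor neuron secretes in the form that clusters receptors and which muscle makes in other forms. Its brighter probe (mm9 chr4:155539415-155539474) read 10.03, 9.64, 9.92 and 9.56 in WT and 9.78, 9.42 and 9.16 in AR113Q, with a difference of -0.33 (95% confidence interval -0.80 to 0.13, adjusted p = 0.215). The genotypes overlapped, and the sign turned within slide 2 (0.14). Its dimmer probe (mm9 chr4:155546878-155546937) was at background on all 7 arrays, read 1.72 to 2.86 in WT and 1.84 to 3.33 in AR113Q, and was not tested.

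**Figure D2:**
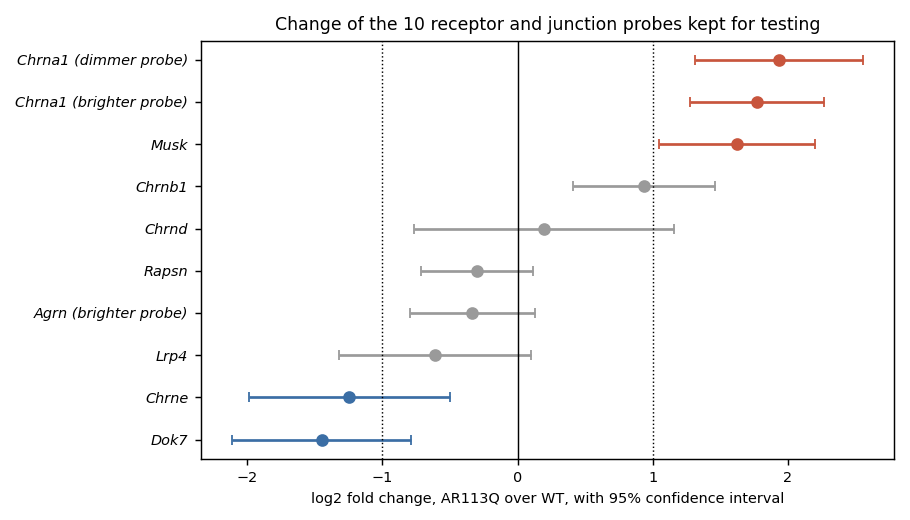
Log2 fold change of AR113Q over WT (x axis, 4 WT and 3 AR113Q arrays) for the 10 probes tested, with 95% confidence intervals from limma; red points were called upregulated, blue points downregulated and gray points neither, and dotted lines mark the fold change threshold of 1. The intervals of both Chrna1 probes and of Musk lie wholly above 1, those of Chrne and Dok7 reach -0.50 and -0.79.

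To ask whether these genes changed unequally on the same arrays, the normalized log2 signals were subtracted within each array. Chrna1 minus Chrne, the alpha over the epsilon subunit, was 2.46, 3.16, 3.23 and 2.80 in WT and 6.50, 6.06 and 5.23 in AR113Q, a shift of 3.02 with no overlap. That lack of overlap, and with it the p-value given below, followed from the single genes. Chrna1 lay higher and Chrne lower on every AR113Q array than on any WT array. Musk minus Lrp4, the kinase over its agrin receptor, was 1.11, 1.75, 1.44 and 2.70 in WT and 4.79, 3.76 and 3.40 in AR113Q, a shift of 2.23, again with no overlap. In each of these 2 comparisons the exact two-sided permutation test gave p = 0.0571, the smallest value that 4 against 3 arrays allow, so that neither could pass 0.05. The shifts were smaller with normexp background correction, 2.17 and 1.53, and in the authors' normalized values, 1.95 and 1.38. The level of such a difference has no meaning across probes, and only its shift between genotypes is read here. The corresponding differences with Chrng were not computed because its probe was too dim.

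**Figure D3:**
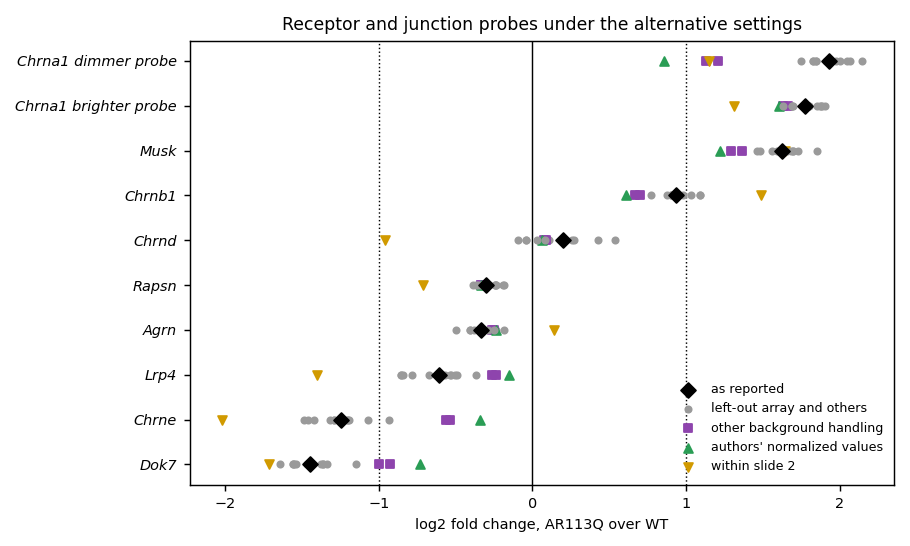
Log2 fold change of AR113Q over WT (x axis) of the 10 probes tested as reported (black diamonds) and under the alternative settings. Green triangles are the authors' normalized values, purple squares other background handling, yellow triangles the difference within slide 2, and gray points the remaining settings, each left-out array among them; Chrna1, Chrnb1 and Musk stayed above 0 and Chrne and Dok7 below 0 in every setting, while Chrnd and Agrn crossed 0.

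RefSeq promoter windows of 300 bases (250 before and 50 after a gene start, build GRCm38.p6) were given for 7 of the 10 genes, in 9 windows; Chrnd, Rapsn and Lrp4 were the others. The windows of the called genes are printed because synaptic and activity-dependent transcription of receptor genes is known to act through E-boxes, which bind myogenic factors, and through the N-box, which binds GABP. Capitals mark the E-box CANNTG, which reads the same on both strands, and the N-box CCGGAA searched on both strands; CAGCTG is a form of the E-box. Each sequence runs 5′ to 3′ along the gene: Chrna1 is chr2:73580289-73580588 on the minus strand, Musk chr4:58285712-58286011 on the plus strand, Chrne chr11:70619145-70619444 on the minus strand and Dok7 chr5:35056516-35056815 on the plus strand, the first of its 2 windows.
Chrna1: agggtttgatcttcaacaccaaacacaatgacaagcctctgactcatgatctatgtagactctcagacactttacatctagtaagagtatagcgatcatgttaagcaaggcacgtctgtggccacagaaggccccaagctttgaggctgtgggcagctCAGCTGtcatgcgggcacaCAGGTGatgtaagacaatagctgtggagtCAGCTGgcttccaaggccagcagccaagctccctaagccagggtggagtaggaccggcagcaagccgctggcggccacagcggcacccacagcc
Musk: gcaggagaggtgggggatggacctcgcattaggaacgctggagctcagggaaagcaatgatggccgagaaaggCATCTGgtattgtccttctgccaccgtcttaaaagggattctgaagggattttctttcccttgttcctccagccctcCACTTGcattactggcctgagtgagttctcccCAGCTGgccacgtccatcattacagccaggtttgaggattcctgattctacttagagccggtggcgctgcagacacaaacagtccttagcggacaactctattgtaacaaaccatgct
Chrne: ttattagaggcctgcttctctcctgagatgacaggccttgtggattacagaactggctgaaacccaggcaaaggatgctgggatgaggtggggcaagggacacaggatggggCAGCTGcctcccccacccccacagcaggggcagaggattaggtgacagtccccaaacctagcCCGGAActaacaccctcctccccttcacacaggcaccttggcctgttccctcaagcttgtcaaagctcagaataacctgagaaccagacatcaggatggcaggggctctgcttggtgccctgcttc
Dok7: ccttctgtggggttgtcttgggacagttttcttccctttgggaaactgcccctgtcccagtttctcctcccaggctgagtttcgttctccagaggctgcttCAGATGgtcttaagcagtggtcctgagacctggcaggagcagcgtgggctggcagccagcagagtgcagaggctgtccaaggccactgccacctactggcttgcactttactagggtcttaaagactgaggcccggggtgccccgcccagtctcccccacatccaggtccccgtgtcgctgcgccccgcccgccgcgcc

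The Chrna1 window held 3 E-boxes, at 92, 73 and 44 bases before the start, the first and last of them CAGCTG. The Musk window held 3 as well, at 177, 100 and 68 bases before the start, the last of them CAGCTG. The Chrne window held 1 E-box, a CAGCTG at 138 bases, and the N-box at 76 bases before the start, and the Dok7 window printed held 1 E-box at 149 bases and no N-box. Of the windows not printed, those of Chrnb1 and Chrng held 3 E-boxes each, 2 of them CAGCTG in Chrng, and the others held at most 1. Over all 32851 windows, 72.3% held an E-box, 17.6% held at least 3, 16.3% held CAGCTG, 1.9% held it at least 2 times, and 14.9% held an N-box on either strand. CAGCTG thus lay in windows of genes that rose as well as of Chrne, which fell. A match is a run of letters in this window and not a binding site.

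**Figure D4:**
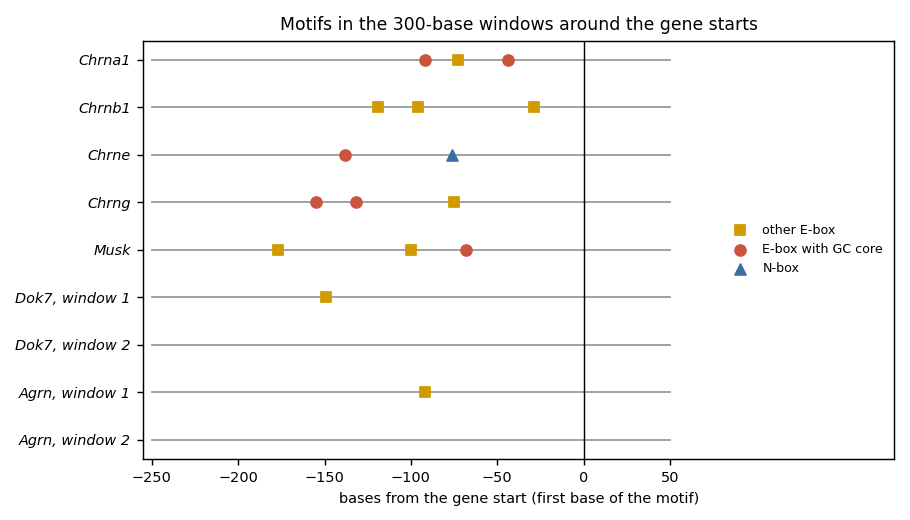
Position of the motifs in the 9 promoter windows (x axis, bases from the gene start at 0, first base of each motif; each gray line is 1 window). Red circles are E-boxes with a GC core, yellow squares other E-boxes and the blue triangle the N-box, which was found only in the window of Chrne among these 9.

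Around these genes, 101 further genes of the junction were described in 8 roles. Of them 76 had a probe bright enough to be tested, 24 were too dim and 1 had no probe; 13 were upregulated, 14 were downregulated and 49 were not called. The downregulated count was 8 with normexp background correction and 7 in the authors' normalized values, and the upregulated count was 9 in both. The median log2 fold change of the 76 was -0.18. The shares are set against the 11.2% and 13.1% of all genes called up and down. The lists of all roles were chosen with earlier results of these data known.

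Genes of the synaptic cleft and basal lamina, the matrix between nerve and muscle, were downregulated in 6 of 11 cases and upregulated in none, with a median of -1.35. Colq, the collagen tail that anchors acetylcholinesterase, had the largest decrease. It read 10.12, 10.04, 9.54 and 9.46 in WT and 6.55, 7.45 and 8.33 in AR113Q, so that the genotypes did not overlap, and it decreased by 2.35 ± 0.39 (log2, SE; adjusted p = 0.00222). Ache, the enzyme that breaks down acetylcholine, had a log2 fold change of -1.60 ± 0.54 (adjusted p = 0.0410), with AR113Q replicate 1 at 4.74 far below AR113Q replicates 2 and 3 at 7.09 and 6.85. Size and call rested on that array: without it the log2 fold change was -0.86 (adjusted p = 0.0460), under the threshold of fold, and without any 1 of the WT arrays it stayed at -1.75 to -1.47 while the adjusted p was 0.0509 to 0.0932. Its other probe was also downregulated over all 7 arrays, with a log2 fold change of -1.39. The other 4 were Lama4 (a laminin chain), Col4a5 (a collagen IV chain), Nid2 (nidogen) and Hspg2 (perlecan), with log2 fold changes of -1.57 to -1.35; a further probe of Hspg2 was not called (-0.66). The call of Col4a5 was lost without AR113Q replicate 1 (-1.33, adjusted p = 0.0504). Of 6 fibroblast markers, which make matrix, 3 (Col1a1, Col1a2 and Lum) were downregulated as well, with a median of -1.60 over the 6. The summed signal of the 6 was 92680 to 110400 in WT and 75130 to 105600 in AR113Q. Dcn, the brightest of them, was the only one with a positive difference (0.41, not called). Fewer cells of a type and less RNA per cell cannot be told apart in whole muscle, and the part of these cells in the cleft genes was not tested.

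Downstream of MuSK, 3 of 16 genes were upregulated and 1 was downregulated, with a median of -0.08. Ptpn11, which encodes the phosphatase SHP2, changed by 1.46 and Pak1, a kinase of the actin cytoskeleton, by 1.24. Crkl, an adaptor that binds phosphorylated DOK7, was upregulated by 1.01 ± 0.23 (log2, SE; adjusted p = 0.00942), just past the threshold. Crkl fell under the threshold without AR113Q replicate 1 (0.77), WT replicate 2 (0.95) or WT replicate 3 (0.94), and Pak1 without AR113Q replicate 2 (0.94). Tnk2, a non-receptor kinase, had a log2 fold change of -1.42 and a second probe that was also downregulated. A further probe of Crk, an adaptor whose brightest probe was not called (-0.26), was upregulated by 3.04 (adjusted p = 0.000349). The array annotation places the Ptpn11 probe on another chromosome than the gene, which leaves its identity uncertain.

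Of the neuregulin and synaptic transcription genes, 1 of 6 was upregulated. This was Gabpa, the DNA-binding subunit of the factor GABP, with 6.78, 6.75, 7.02 and 7.06 in WT and 8.41, 7.50 and 8.05 in AR113Q, a log2 fold change of 1.08 ± 0.23 (SE, adjusted p = 0.00618). Its second probe gave 1.08 as well. Without AR113Q replicate 1 the brightest probe gave 0.87 (adjusted p = 0.0174), which was not called. Gabpb1, a partner subunit of GABP, had a difference of 0.86 (adjusted p = 0.0102) at its brightest probe and a second probe that was upregulated, at 2.09 (adjusted p = 0.00633). Among 13 genes of the postsynaptic cytoskeleton and sodium channels, only Cttn, which encodes the actin-binding protein cortactin, was called at its brightest probe, with a log2 fold change of 1.27 and a second probe at 1.86; the array annotation places the first of these probes on another chromosome than the gene. Further probes disagreed with the brightest at Dtna and Ank3, genes of the dystrophin complex and of the ankyrin scaffold: that of Dtna was upregulated by 3.11 against 0.17, and those of Ank3 gave 2.01 and -1.37, both called, against 0.68. The medians of both roles, -0.17 and -0.23, lay near that of all genes.

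Myogenic factors and activity-dependent repressors of receptor genes were upregulated in 1 of 10 cases and downregulated in 3. Myod1, a myogenic transcription factor, read 8.95, 7.84, 8.74 and 8.79 in WT and 4.79, 4.43 and 4.57 in AR113Q, a log2 fold change of -3.98 ± 0.27 (SE, adjusted p = 8.56e-05). Myf6, the myogenic factor of mature fibers, had a log2 fold change of -1.58. Hdac9, a histone deacetylase that represses receptor genes in innervated muscle, fell below the detection limit in all 3 AR113Q samples (not well above background). This gave a decrease of at least 4.98-fold, a bound that was not itself tested. The limma adjusted p of 0.000252 belongs to the measured means, 5.21 in WT and 1.62 in AR113Q. The probe of Hdac9 entered the test through its WT arrays alone. Sirt1, another deacetylase, was upregulated by 1.35. Myog, the myogenic factor that rises after denervation, read 6.93 to 8.79 in WT and 7.01 to 8.04 in AR113Q, a difference of -0.20 (adjusted p = 0.743). Myog was chosen after its values were seen. Of 7 satellite cell markers, 3 (Calcr, Vcam1 and Chodl) were downregulated, and the part of these cells in the Myod1 difference was not tested.

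Denervation-induced genes outside the receptor were upregulated in 7 of 11 cases and downregulated in none, with a median of 1.74. This list was chosen with earlier results of these data known, so that its share of calls is a description and not a test. The largest increases were those of Runx1, a transcription factor, and Ampd3, AMP deaminase. Runx1 read 4.37, 4.998, 4.99 and 5.10 in WT and 10.89, 9.79 and 10.76 in AR113Q, a log2 fold change of 5.62 ± 0.30 (SE, adjusted p = 4.49e-05), and its second probe gave 2.37. Ampd3 read 4.73, 4.90, 5.03 and 5.17 in WT and 10.64, 9.97 and 10.05 in AR113Q, a log2 fold change of 5.27 ± 0.21 (SE, adjusted p = 1.30e-05). The genotypes lay far apart at both genes. The Runx1 probe was well above background on 3 of 4 WT arrays. The other 5 called were Gadd45a, Trim63, Fbxo32, Gdf5 and Chrna9, the last 2 of them above background on only 1 of 4 WT arrays and overlapping between genotypes. The call of Fbxo32 was lost without AR113Q replicate 1 (log2 fold change 1.41, adjusted p = 0.0847) or WT replicate 4 (1.58, adjusted p = 0.0534), against 1.74 with all 7 arrays. That of Gdf5 was lost without any 1 of AR113Q replicates 1 and 3 and WT replicates 1, 3 and 4, with log2 fold changes of 1.09 to 1.32 against 1.36 and adjusted p of 0.0898 to 0.137. That of Chrna9 was lost without any 1 of AR113Q replicates 1 and 2 and WT replicates 1, 2 and 3, with log2 fold changes of 2.75 to 3.62 against 3.41 and adjusted p of 0.0602 to 0.111. The role also held genes that were not called, among them Ncam1, the neural cell adhesion molecule, which had a difference of -0.68 (adjusted p = 0.0410) and was chosen after its values were seen. The brightest probe of Myh8, a developmental myosin heavy chain, read 16.83 to 17.50, beside a WT mean of 17.68 for Acta1. Whether that probe reads Myh8 alone was not tested. It was not called (0.24), while the second probe of Myh8 was downregulated, at -1.87 (adjusted p = 0.000325). An increase across the role was therefore not shared by all of its members.

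Presynaptic and receptor glycosylation genes, mutated in congenital myasthenic syndromes, were downregulated in 4 of 8 cases and upregulated in none. Alg2, a mannosyltransferase, had a log2 fold change of -2.92 ± 0.24 (SE, adjusted p = 0.000142), with 9.78 to 10.30 in WT and 6.58 to 7.39 in AR113Q. Gmppb and Alg14, also of the glycosylation pathway, had log2 fold changes of -1.35 and -1.19. Vamp1, a vesicle protein, had one of -1.21, and from which cells of the muscle its RNA came was not tested. Without AR113Q replicate 1, Gmppb gave -0.98 and Vamp1 -0.92, under the threshold of fold. The other 5 of the 13 genes of this role, among them Chat and Slc18a3 of the motor neuron, were too dim to be tested. Of 8 motor axon markers, 6 were too dim, 1 had no probe and only Prph was tested, without a call. Of 9 Schwann cell markers tested, Pmp22 among them, 3 (S100b and Egr2 among these) were downregulated and none upregulated; their summed signal was 2532 to 5701 in WT and 1873 to 2542 in AR113Q, and the part of these cells was not tested.

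Among the other nicotinic and muscarinic subunits, 12 of 13 were too dim to be tested. The exception was Chrna2, a neuronal alpha subunit, with a difference of 0.62 (adjusted p = 0.491) and AR113Q replicate 3 at 9.73 above all other arrays.

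**Figure D5:**
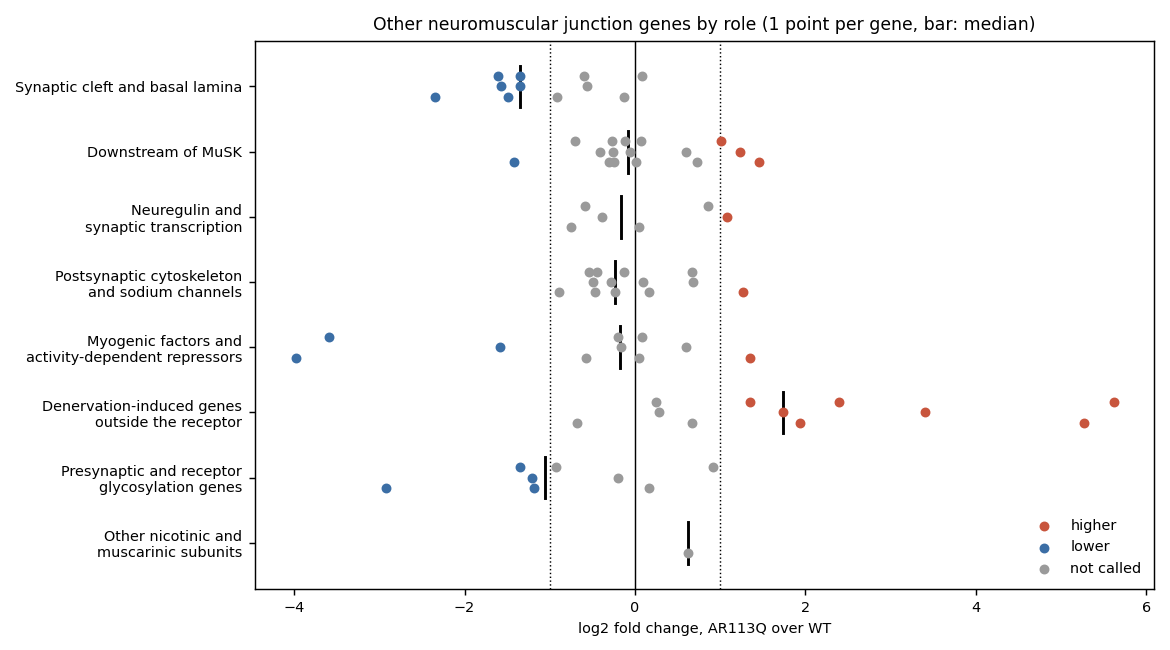
Log2 fold change of AR113Q over WT (x axis) for the 76 other junction genes tested, 1 point per gene at its brightest probe, grouped by role (y axis); red points were upregulated, blue points downregulated and gray points not called, the black bar is the median of the role, and dotted lines mark the fold change threshold of 1. The denervation-induced genes lie furthest to the right (median 1.74) and the cleft genes furthest to the left (median -1.35). The genes of each role were chosen with earlier results of these data known.

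The genes most like Chrna1 across the arrays were found by Pearson's r of normalized log2 signal over the 7 arrays, set against the Chrna1 probe with the larger change. They were Il6ra, the interleukin-6 receptor (r = 0.994), Atp6ap2, an accessory protein of the proton pump (r = 0.994), Atg13, an autophagy protein (r = 0.993), Arl4a, a small GTPase (r = 0.993), and Sec61a1, part of the translocon of the endoplasmic reticulum (r = 0.991). The 7 points fall into the 2 genotypes, so that r mostly reflects the difference between them, and it is given as a description. The sizes of change differed: Il6ra changed by 2.96, Atg13 by 1.58 and Atp6ap2 by 1.28 on the log2 scale, all called, while Arl4a and Sec61a1 differed by 0.50 and 0.68 and were not called.

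The other marker lists moved as follows. Of 6 macrophage markers, 2 (Adgre1 and Csf1r) were downregulated, with a summed signal of 7843 to 13880 in WT and 5803 to 8431 in AR113Q. Of 6 endothelial markers, which include Egfl7, only Cldn5 was called, and it was upregulated. In the satellite cell list the summed signal was 20180 to 24560 in WT and 22130 to 28400 in AR113Q. Des was the brightest marker of that list and the only one with a positive difference (0.41, not called). The median log2 fold change of the list was -0.55. In the fibroblast list, which includes Dcn, the sum is given beside the cleft genes. The part of these cell types in the results on the receptor genes was not tested.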

How the data were processed

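Quadriceps RNA of 4 WT and 3 AR113Q mice was read on 7 single-dye arrays. Per the submitters' processing notes, the authors used Feature Extraction 10.7.3.1 to quantify the images, and deposited spot intensity values, corrected for background and spatial trend in each array but not between arrays, next to mean spot intensity and median local background. A further table that the authors deposited holds log2 values of 18592 probes, quantile normalized according to the methods, and served as an alternative. Background subtraction widens the spread of dim spots on the log2 scale. The number of arrays limits the precision.

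From the background-subtracted intensity, log2 values of the non-control spots were quantile normalized, spots marked as outliers were left out and repeat spots were averaged per probe. Tests used the 21002 of 39429 probes that rose well above background in 3 or more of the 7 arrays, with the lmFit and eBayes functions of limma 3.58.1 (R 4.3.3) and p-values adjusted by Benjamini-Hochberg across these probes. Calls required an adjusted p up to 0.05 together with a log2 fold change of 1 or more in either direction, the false discovery rate and fold change threshold of the study. Genes of the lists were represented by their brightest tested probe; of 24 junction genes with more than 1 tested probe, 6 had probes with different calls (Ank3, Crk, Dtna, Gabpb1, Hspg2 and Myh8). A probe below background on a whole group was given as a bound against the lowest signal well above background. Positions of probes come from the annotation of the array (mm9); RefSeq names (GRCm38.p6) matched 28330 probes and all 12 receptor and junction probes. Within-array differences were tested by exact permutation over the arrays. The fit was tested on simulated data. A few measured genes are left out of the text.

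The 10 genes and the lists were chosen with earlier results of these data known. Named were all 10 genes; in each role the called genes if at most 4, otherwise the 2 largest increases and decreases, or the largest change where none was called; the marker with the highest mean over the 7 arrays and the called ones (if at most 3); and the 5 genes most correlated with Chrna1. Further genes were named to fill a count, because their probes disagreed, or are said to be chosen after their values were seen. Alternatives tried were 75th percentile scaling, normexp correction (offset 50), mean intensity without subtraction, the authors' values, no filter or a filter on all 7 arrays, 1 probe or the mean per gene, outlier spots kept, an intensity trend, slide as a random or fixed effect, replicate block, array weights, each array left out, no fold change threshold and unadjusted p. All arrays share 1 scan date, which therefore gave no block.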

Additional observations from a re-analysis of the deposited data

Results flagged for a closer look

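In the 4 WT arrays, a group was singled out where the gap between its highest or lowest array and the next, divided by the whole range, was above Dixon's 95% critical value. The 3 AR113Q arrays were not examined this way. This held for 5 of 40 probes examined, and chance singles out about 1 in 20. Lrp4 was one of them, with WT replicate 4 at 5.516 on the log2 scale below the other 3. In Chrna9, WT replicate 4 at 6.387 was the only WT array above background and lay within the range of AR113Q, so that the 3.41 log2 difference of this gene rests on WT probes at background. In Runx1, WT replicate 1 at 4.366 lay below the others, all of them far below AR113Q. The remaining cases were probes at background in WT, Chrng with WT replicate 3 at 1.492 and the dimmer Agrn probe with WT replicate 1 at 2.865.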

How the results depend on the processing

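Of the receptor and junction probes, 3 were upregulated and 2 downregulated. The downregulated count was 0 with normexp correction, 0 without background subtraction and 0 in the authors' values; Chrne and Dok7 kept their direction but not the fold change threshold there. It was 1 with the replicate block, under which Dok7 stayed called and Chrne kept its fold change (-1.29) but not the adjusted p (0.0603). A fixed effect of slide rests on slide 2 alone, with 1 residual degree of freedom; under it limma called 0 upregulated and 0 downregulated here and 0 of all probes, while 4 and 2 had an unadjusted p of at most 0.05 past the fold change threshold. For the other junction genes the counts of 13 and 14 became 0 and 0 with slide as a fixed effect (13 and 18 at unadjusted p), and 8, 9 and 7 were downregulated with normexp correction, without background subtraction and in the authors' values. Under each of these last settings 9 were upregulated. Leaving out each array gave 3 to 4 upregulated and 1 to 2 downregulated probes, 9 to 13 and 10 to 17 other junction genes, and shifts of 2.73 to 3.37 for Chrna1 minus Chrne and 1.83 to 2.55 for Musk minus Lrp4, which were 1.95 and 1.38 in the authors' values; the 1 came without AR113Q replicate 1, which cost the call of Chrne. The sign of Chrnd turned with slide as a fixed effect (-0.96), with the replicate block (-0.043), without WT replicate 4 and without AR113Q replicate 3 (-0.10 to 0.54 over the left-out arrays), and that of Agrn with slide as a fixed effect (0.14). The cause was not tested.

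The replicate numbers did not pair the samples: deviations of same-numbered arrays correlated at 0.04, -0.02 and 0.15. The replicate block drops WT replicate 4, which has no partner, and called 4 probes up and 1 down here and 11 and 13 other junction genes. Over all probes, 2556 up and 2655 down became 982 and 1106 with normexp correction, 1067 and 1197 without background subtraction, 735 and 857 in the authors' values and 4663 and 4540 without the fold change threshold. Dim probes have the least certain fold changes, and for Chrng and the dimmer Agrn probe no change could be measured.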
